A study of Schizosaccharomyces pombe with 9 samples.

Results

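The tra1-AA allele of fission yeast was compared with wild type across all genes of the deposited count table. The comparison uses 6 of the 9 libraries in the series, the columns named for tra1-AA replicates 1 to 3 and WT replicates 1 to 3. Of 5129 genes in the table, 4913 had enough counts to be tested. All groups are Schizosaccharomyces pombe in liquid culture, taken in mid-logarithmic growth in YES, a rich glucose medium. The tra1-AA group is strain DHP1509, the tra1D group, in which tra1 is deleted, is DHP609, and the WT group is DHP43. Each genotype is thus 1 strain with 3 libraries, and the labels give neither the residues that tra1-AA changes nor any other marker of the strains. Titles of the tra1D and WT libraries are marked as re-analysed and those of tra1-AA are not. Whatever that mark stands for and genotype thus cannot be told apart in tra1-AA against WT, nor in tra1-AA against tra1D. Since no label states that replicates came from separate cultures, each p-value here measures spread among libraries that may be technical.

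Tra1 is the largest subunit of SAGA, a coactivator complex that transcription activators recruit to promoters, where it acetylates and deubiquitinates histones and helps place TATA-binding protein. It belongs to the PIKK family of large kinases but has lost kinase activity, and it serves as a surface that activators touch. In fission yeast the acetyltransferase complex NuA4 uses a paralog, Tra2, which leaves tra1 dispensable for growth. PIKK proteins are matured by the chaperone Hsp90 with its cochaperone TTT, the subject of the series.

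Library totals lay between 6208529 and 8101004 counts in the 6 libraries compared, so that 1 count was worth 0.126 to 0.168 CPM (counts relative to library totals as scaled by edgeR) in the 9 libraries of the fit, and a gene with no count can have had up to 0.379 to 0.503 CPM (3 counts). Such limits cover counting error only. Along the first principal component of log2 CPM, with 51.8% of the variance, WT libraries stood apart from all 6 mutant libraries. Along the second component, with 12.6%, WT replicate 3 and tra1-AA replicate 3 lay at one side, at 10.2 and 8.4, and WT replicate 2 at the other, at -7.62. The transcript of tra1 itself (SPBP16F5.03c) had 87.1, 79.7 and 70.7 CPM in tra1-AA, 0.726, 0.259 and 0.335 CPM in tra1D and 97.3, 96 and 88.9 CPM in WT. All tra1-AA libraries were below all WT libraries by a narrow margin, and tra1D lay near 0. Between tra1-AA and WT the difference did not pass (-0.25 ± 0.10, edgeR BH-adjusted p = 0.0998), where the first value in the brackets is the fitted log2 fold change of tra1-AA over WT with its standard error, as in all brackets of this form, and a change given with no other unit is this log2 fold change. With the replicate number as a block, and only the 6 libraries fitted, it passed at -0.26 (edgeR, BH-adjusted p = 0.0356), and without tra1-AA replicate 1 it was -0.32 (edgeR, BH-adjusted p = 0.0454).

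In tra1-AA, 781 of 4913 genes changed, which is 15.9% of those tested (Benjamini-Hochberg adjusted p under 0.05 in the quasi-likelihood test of edgeR). Of these 390 rose (7.94%) and 391 fell (7.96%). In this fit rises and falls were nearly equal in number but not in size. Changes of at least 1.5-fold counted 65 rises and 171 falls, those of at least 2-fold 23 and 75, those of at least 4-fold 7 and 28, and those of at least 8-fold 1 and 12. The remaining 545 calls, 69.8%, were under 1.5-fold. The median log2 fold change was 0.34 over the rises and -0.50 over the falls, against 0.006 over all tested genes. In 773 of the calls the 3 tra1-AA libraries lay wholly above or below the 3 WT libraries, as they did in 34.7% of all tested genes, above in 19.8% and below in 14.9%. The count of calls was 364 without tra1-AA replicate 2 and 398 without WT replicate 1. In each of the 9 fits with 1 library left out 308 of the genes were called, 114 higher and 194 lower.

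Large changes came mostly from weakly expressed genes. Over 5 groups of equal size by level, in the lowest, between 0.947 and 32.8 CPM, 45 rose and 92 fell, and 13 rises and 46 falls reached 2-fold. In each of the 3 middle groups rises outnumbered falls, with 87 and 67, 89 and 62, and 104 and 76. The most abundant group had 65 rises and 94 falls. The authors' deposited table of tra1-AA calls 625 genes at an adjusted p under 0.05, 240 higher and 385 lower, and 582 of them were called here with the same sign, while 43 were called in the authors' deposited table alone and 199 here alone. Over the 781 genes the median size of the log2 fold change is 0.374 in the authors' deposited table and 0.411 here. For ght5 the authors' deposited table gives a log2 fold change of 1.00, and of 98 genes at 2-fold or more here 52 reach 2-fold in the authors' deposited table.

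**Figure D1:**
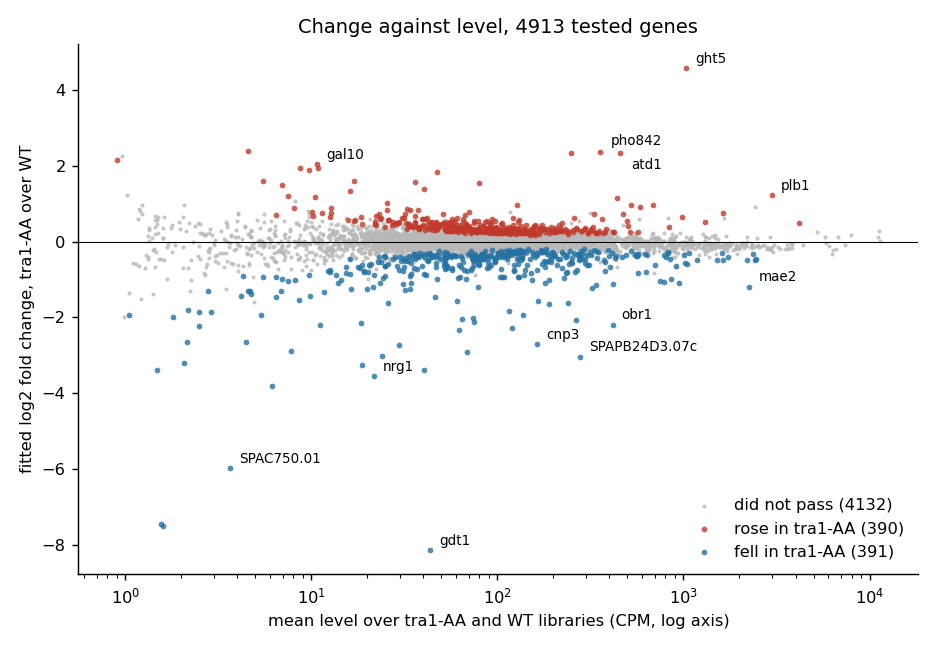
Fitted log2 fold change of tra1-AA over WT (vertical axis) against the mean CPM over the 6 libraries (horizontal log axis), with 1 point per tested gene; red points rose, blue points fell and grey points did not pass. The 28 falls of at least 4-fold reach further from 0 than the 7 rises of that size, with ght5 the furthest rise.

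Sugar uptake held the largest rise. ght5 (SPCC1235.14) encodes the high-affinity glucose transporter of the plasma membrane, and it had 2056, 2346 and 1534 CPM in tra1-AA, 1639, 1952 and 1634 CPM in tra1D and 94.4, 125 and 28.2 CPM in WT. The lowest tra1-AA library was over every WT library by more than an order of magnitude (4.58 ± 0.41, edgeR BH-adjusted p = 3.58e-05), while WT replicate 3 was the lowest of its group. Among the 8 hexose transporter genes, ght1 also rose, with 8.88, 12 and 10.4 CPM in tra1-AA and 5.17, 6.68 and 5.07 CPM in WT (0.88 ± 0.20, edgeR BH-adjusted p = 0.012), and 6 did not pass. The call of ght1 was lost without tra1-AA replicate 2 (0.76) or without WT replicate 1 (0.82). ght8, the most abundant of the others, had a log2 fold change of 0.06, and ght2 had -0.33 (edgeR, BH-adjusted p = 0.0609), which passed with the replicate block in the 6 libraries at -0.35 (edgeR, BH-adjusted p = 0.00627). The median of the 8 genes was 0.46, and 25.0% of them were called, against 15.9% of all tested genes.

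Galactose and disaccharide genes moved in both directions. gal7, for galactose-1-phosphate uridylyltransferase, had 72.6, 84.2 and 65.2 CPM in tra1-AA and 21.8, 22.9 and 16.6 CPM in WT, a 3.6-fold rise (1.85 ± 0.13, edgeR BH-adjusted p = 3.94e-06). gal10, the epimerase gene next but one to it, had 16.5, 19.7 and 15.6 CPM in tra1-AA and 4.42, 3.68 and 4.44 CPM in WT (2.04 ± 0.23, edgeR BH-adjusted p = 0.000181). The groups did not overlap for either gene. gal1, the galactokinase gene beside gal10, did not pass against WT, at 0.40 (edgeR, BH-adjusted p = 0.169). inv1, which encodes the secreted invertase that splits sucrose, rose to 15.3, 16.5 and 9.47 CPM in tra1-AA, against 3.16, 3.96 and 3.64 CPM in WT (1.94 ± 0.35, edgeR BH-adjusted p = 0.00334). The maltase-type glucosidase gene agl1 fell, with 19.2, 21.2 and 18.6 CPM in tra1-AA and 42, 42.4 and 43.7 CPM in WT (-1.11 ± 0.11, edgeR BH-adjusted p = 9.53e-05). Of the 9 genes tested in this group 3 rose, 3 fell and 3 did not pass, or 66.7% called, with a median of 0.18.

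Sensing of glucose in fission yeast runs from the receptor Git3 through the G protein Gpa2 to cyclic AMP and protein kinase A, and the repressor Scr1 shuts genes of other carbon sources. git3 fell, with 53.3, 45 and 38.2 CPM in tra1-AA, 35.2, 42.5 and 45.4 CPM in tra1D and 98.5, 94.4 and 76 CPM in WT (-0.98 ± 0.14, edgeR BH-adjusted p = 0.000751). gpa2, named here after its value was seen, fell with it, to 85.2, 82.9 and 75.8 CPM in tra1-AA against 123, 106 and 101 CPM in WT (-0.44 ± 0.09, edgeR BH-adjusted p = 0.00653). scr1 rose, with 65, 69.5 and 85.8 CPM in tra1-AA and 42.8, 52 and 47.7 CPM in WT (0.63 ± 0.12, edgeR BH-adjusted p = 0.00454). Receptor, G protein and repressor were each separated between tra1-AA and WT in every library. The kinase gene pka1 had a log2 fold change of 0.01 and did not pass. Regulators and repressed genes together had 41.9% called. Of 18 regulators 3 rose and 3 fell, and of 13 genes listed as repressed by glucose 5 rose and 2 fell. Among those that rose were atd1, for an aldehyde dehydrogenase, with 751, 740.4 and 804 CPM in tra1-AA and 148, 99.9 and 208 CPM in WT (2.33 ± 0.26, edgeR BH-adjusted p = 0.00015), and gcd1, a glucose dehydrogenase gene of the gluconate route, with 25.6, 35.1 and 15.9 CPM in tra1-AA and 9.34, 10.1 and 5.7 CPM in WT (1.59 ± 0.31, edgeR BH-adjusted p = 0.00607). fbp1, the classical reporter of glucose repression, did not pass, at 0.11. Repressed genes did not move as a block, since the malate permease gene mae1 fell, with 594, 608 and 523 CPM in tra1-AA and 1183, 1307 and 925 CPM in WT (-0.98 ± 0.12, edgeR BH-adjusted p = 0.000226).

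**Figure D2:**
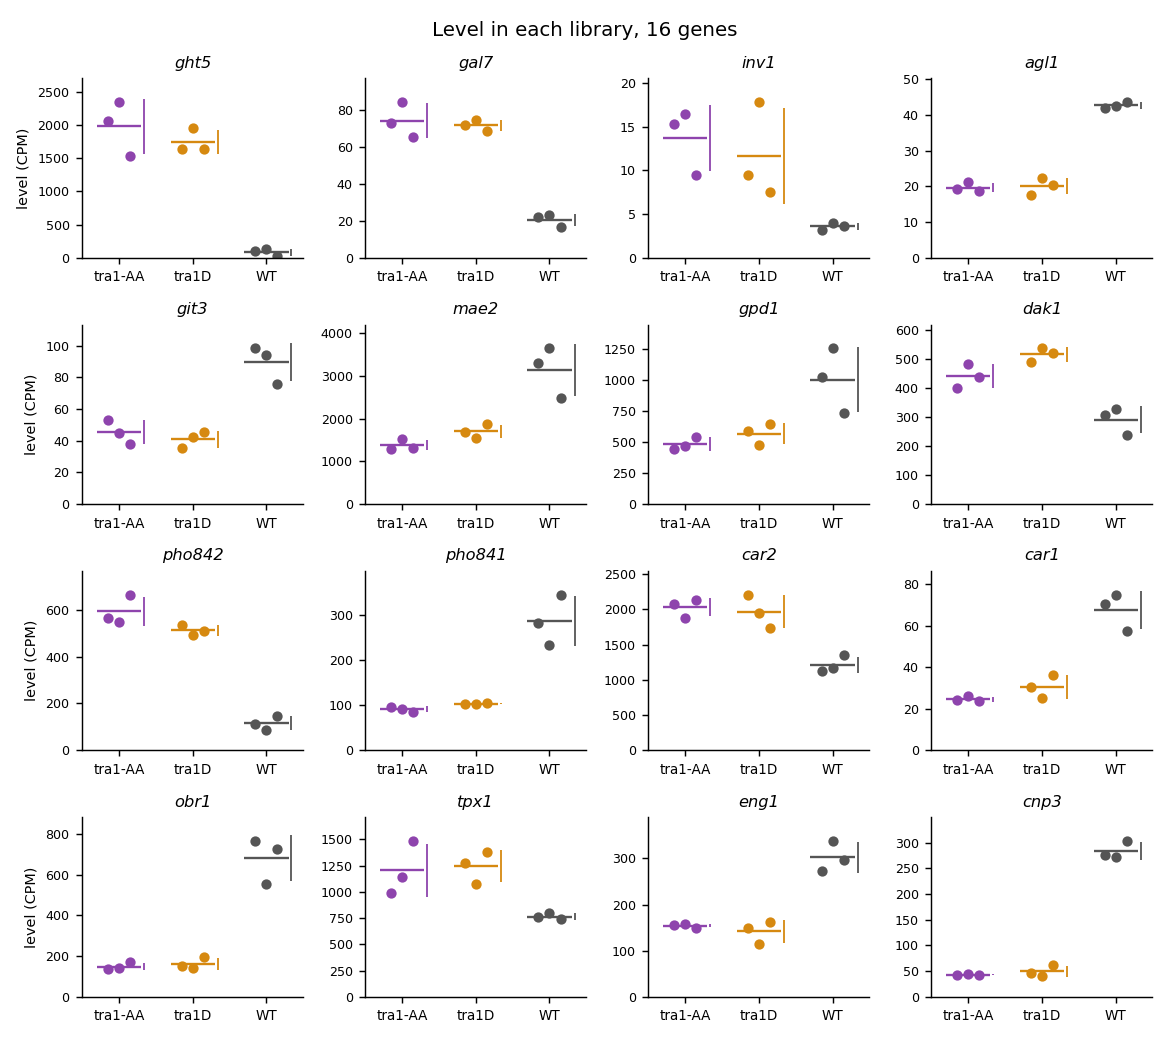
Level in CPM (vertical axes, from 0) of 16 genes in each library of tra1-AA, tra1D and WT, with dots for libraries, horizontal bars for means and vertical bars for 1 SD (n = 3). In each panel the tra1-AA dots lie wholly above or below the WT dots, for example 2056, 2346 and 1534 CPM against 94.4, 125 and 28.2 CPM for ght5.

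In glycolysis, fermentation and the pentose phosphate and gluconate routes some genes rose and some fell. Of 13 glycolytic genes 2 rose and 2 fell, and tdh1, a gene for glyceraldehyde-3-phosphate dehydrogenase, did not pass at 0.11. With the fermentation genes, 36.4% of the list was called. Over glycolysis and fermentation together the 4 rises were 1 without tra1-AA replicate 2, tra1-AA replicate 3 or WT replicate 1, and 2 without WT replicate 3 or tra1D replicate 1. The falls included the minor enolase gene eno102, near the left end of chromosome II, with 9, 18 and 11 counts in tra1-AA, 52, 15 and 39 in tra1D and 109, 89 and 97 in WT (-2.90 ± 0.41, edgeR BH-adjusted p = 0.000759), whereas eno101, the major enolase gene, was at 0.28 and did not pass. The alcohol dehydrogenase gene adh8 fell by 0.92 on the log2 scale. At the entry of the pentose phosphate pathway, zwf1, the glucose-6-phosphate dehydrogenase gene, fell to 221, 246 and 248 CPM in tra1-AA against 372, 352 and 325 CPM in WT (-0.56 ± 0.07, edgeR BH-adjusted p = 0.000494), while idn1, the gluconokinase gene that joins the route from gcd1, rose, at 0.52 (edgeR, BH-adjusted p = 0.00659). The later steps gnd1 (0.13), tal1 (0.09) and tkt1 (-0.01) did not pass.

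Glycerol genes changed in both directions. gpd1, the glycerol-3-phosphate dehydrogenase gene that makes glycerol under osmotic stress, fell to 442, 468 and 545 CPM in tra1-AA against 1025, 1258 and 731 CPM in WT (-1.05 ± 0.17, edgeR BH-adjusted p = 0.00231). Of the dihydroxyacetone kinase genes, which serve glycerol use, dak1 rose and dak2 fell. dak1 had 401, 483 and 437 CPM in tra1-AA, 488, 537 and 521 CPM in tra1D and 307, 327 and 239.5 CPM in WT (0.60 ± 0.11, edgeR BH-adjusted p = 0.00473). dak2, the smaller in counts and near the left end of chromosome I, had 9.74, 11.3 and 16.4 CPM in tra1-AA and 31.6, 29.1 and 56.1 CPM in WT (-1.63 ± 0.29, edgeR BH-adjusted p = 0.00307). Neither gene had overlapping groups. The trehalose genes tps1, tpp1 and ntp1 did not pass, with log2 fold changes from -0.16 to 0.01. Of the 10 genes on this list 2 rose and 3 fell, or 50.0% called. The 2 rises were 1 without tra1-AA replicate 2, tra1-AA replicate 3, WT replicate 1 or WT replicate 2.

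Of 20 genes for the tricarboxylic acid cycle and pyruvate dehydrogenase 6 rose, 1 fell and 13 did not pass, or 35.0% called. The rises were 0.62 for mdh1, the mitochondrial malate dehydrogenase gene, 0.38 for cit1, the citrate synthase gene, 0.37 and 0.29 for idh1 and idh2, the isocitrate dehydrogenase genes, 0.34 for kgd2 and 0.31 for lsc2. mdh1 had 313, 314 and 308 CPM in tra1-AA and 199, 214 and 194 CPM in WT (0.62 ± 0.07, edgeR BH-adjusted p = 0.00015). The fall was fum1, the fumarase gene, with 218, 244 and 254 CPM in tra1-AA and 356, 388 and 360.1 CPM in WT (-0.62 ± 0.08, edgeR BH-adjusted p = 0.000381), the step just before malate dehydrogenase. Without tra1-AA replicate 2 the 2 rises left were mdh1 and idh1, cit1 was also lost without WT replicate 1, lsc2 without tra1-AA replicate 3, and idh2 without any 1 tra1-AA library, WT replicate 1, WT replicate 3, tra1D replicate 1 or tra1D replicate 3. Without WT replicate 3 the list had 3 falls. The malic enzyme gene mae2 fell too, with 1290, 1513 and 1325 CPM in tra1-AA, 1699, 1552 and 1865 CPM in tra1D and 3299, 3651 and 2474 CPM in WT (-1.19 ± 0.14, edgeR BH-adjusted p = 0.0002). The genes for malate uptake and for its conversion to pyruvate were thus both lower in tra1-AA, in every library. Of 33 nuclear genes of the respiratory chain 2 rose, 1 fell and 30 did not pass, or 9.09% called. The 2 rises were lost without tra1-AA replicate 2, tra1-AA replicate 3, WT replicate 1 or WT replicate 2. The fall, of the cytochrome c gene cyc1 (-0.32), was lost without tra1-AA replicate 1, tra1-AA replicate 2, WT replicate 1, WT replicate 3 or any 1 tra1D library.

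Phosphate transport showed a rise and falls within a single family. pho842 (SPAC23D3.12) encodes a phosphate transporter and had 565, 547 and 664 CPM in tra1-AA, 536, 491 and 508 CPM in tra1D and 114, 87.8 and 146 CPM in WT (2.35 ± 0.15, edgeR BH-adjusted p = 2.88e-06). The transporter genes pho841 and pho843, named after their values were seen, fell. pho841, near the left end of chromosome II, had 97.2, 92 and 84.6 CPM in tra1-AA and 282, 234 and 345 CPM in WT (-1.65 ± 0.12, edgeR BH-adjusted p = 4.48e-06). pho843 had 92.8, 82.8 and 90.2 CPM in tra1-AA and 172, 150.5 and 184 CPM in WT (-0.93 ± 0.10, edgeR BH-adjusted p = 0.000107). The high-affinity transporter gene pho84, which phosphate starvation induces, did not pass, at 0.06 (edgeR, BH-adjusted p = 0.854). pho1, the secreted acid phosphatase gene, rose to 695, 779.5 and 599 CPM in tra1-AA against 368, 465 and 233 CPM in WT (0.96 ± 0.21, edgeR BH-adjusted p = 0.0122), and this call was lost without tra1-AA replicate 2 (0.85). Among these transporter genes pho842 was thus above, and pho841 and pho843 below, WT in every tra1-AA library. Of 14 genes on the phosphate list pho842 and pho1 rose, the regulator gene csk1 fell, at -0.44, and 11 did not pass, pho7 for the activator of the pathway among them (0.04). The call of csk1 was lost without any 1 tra1-AA library, WT replicate 1 or WT replicate 3. In all, 21.4% of the phosphate list was called.

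Most of the metal genes that passed were lower. Of 17 iron genes 5 fell and 12 did not pass, with a median of -0.25. str1, a siderophore transporter gene, had 39.4, 18 and 25.9 CPM in tra1-AA and 78, 51 and 238 CPM in WT (-2.13 ± 0.51, edgeR BH-adjusted p = 0.0167). The groups did not overlap, and WT replicate 3 was far above the other WT libraries. Without WT replicate 3 the log2 fold change of str1 was -1.22, and the call did not hold without tra1-AA replicate 2 (-1.91), nor without tra1-AA replicate 3 (-2.08). grx4, the glutaredoxin gene that takes part in iron sensing, fell more evenly, with 153, 138 and 159 CPM in tra1-AA and 212, 205 and 233 CPM in WT (-0.53 ± 0.08, edgeR BH-adjusted p = 0.00123). The iron list had 2 falls without tra1-AA replicate 2, and also 2 without tra1-AA replicate 3. Among 16 zinc and copper genes 5 fell and zym1, the zinc-binding metallothionein gene, rose, with 46.1, 60.5 and 56.2 CPM in tra1-AA, 65.5, 73.8 and 78.8 CPM in tra1D and 19.2, 22 and 13.5 CPM in WT (1.56 ± 0.16, edgeR BH-adjusted p = 9.53e-05). cao2, a copper amine oxidase-like gene, varied within both groups, with 6.59, 13.3 and 3.31 CPM in tra1-AA and 53.4, 83.6 and 17.7 CPM in WT, and it was lower in tra1-AA without overlap (-2.73 ± 0.54, edgeR BH-adjusted p = 0.00632). Its log2 fold change was -3.39 without tra1-AA replicate 2. The zinc and copper list had 2 falls without WT replicate 1 or WT replicate 2 and 3 without any 1 tra1-AA library. Calls made up 29.4% of the iron list and 37.5% of the zinc and copper list.

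Arginine and proline catabolism was split at its first step. Arginase, encoded by car1, opens arginine breakdown and ornithine transaminase, encoded by car2, follows it. car1 fell to 24.2, 26 and 23.6 CPM in tra1-AA, 30.4, 25 and 36.4 CPM in tra1D, against 70.3, 74.9 and 57.4 CPM in WT (-1.46 ± 0.14, edgeR BH-adjusted p = 6.25e-05). car2 rose to 2076, 1883 and 2127 CPM in tra1-AA, 2211, 1954 and 1743 CPM in tra1D, against 1131, 1165 and 1347 CPM in WT (0.74 ± 0.11, edgeR BH-adjusted p = 0.000976). The libraries of tra1-AA and WT did not overlap for either. put1, the proline dehydrogenase gene, rose, with 803, 812 and 690.1 CPM in tra1-AA and 428, 468 and 323 CPM in WT (0.92 ± 0.12, edgeR BH-adjusted p = 0.000547), and ure2, the urease gene, rose, at 0.44 (edgeR, BH-adjusted p = 0.00581). In the synthesis of arginine, arg3, arg4 and arg5 fell, with log2 fold changes of -0.38, -0.39 and -0.35. The call of arg5 was lost without WT replicate 1. Of 21 genes in all 5 rose, 6 fell and 10 did not pass, or 52.4% called. There were 3 rises and 4 falls without tra1-AA replicate 2 and 3 falls without WT replicate 1.

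Among 21 genes listed under nitrogen and amino acid permeases 3 rose and 3 fell, with 1 rise without tra1-AA replicate 2 and 5 falls without WT replicate 3. The list also holds put1 and mae1, described above. isp5, an amino acid permease gene, had 137, 155 and 64.8 CPM in tra1-AA and 49.1, 53.3 and 17.4 CPM in WT (1.56 ± 0.35, edgeR BH-adjusted p = 0.013), lowest in replicate 3 of both groups, and the call was lost without tra1-AA replicate 2 (1.31). cat1, the basic amino acid permease gene, fell, with 76.3, 63.8 and 75.9 CPM in tra1-AA and 129, 121 and 167 CPM in WT (-0.95 ± 0.12, edgeR BH-adjusted p = 0.000287). The permease gene SPBPB2B2.01, listed as nrg1, fell to 4.73, 4.05 and 1.35 CPM in tra1-AA against 39, 62.3 and 18.4 CPM in WT (-3.55 ± 0.52, edgeR BH-adjusted p = 0.000955). Genes for making amino acids changed little: of 34 tested 2 fell, gly1 and pro2, and 32 did not pass, and both falls were lost without tra1-AA replicate 2, WT replicate 1 or WT replicate 2. pro2 (-0.25) was lost without any 1 of the other libraries too, WT replicate 3 excepted. Calls made up 28.6% of the permease list and 5.88% of the synthesis list.

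Sulfur assimilation was lower where it changed. Of 20 genes 5 fell and 15 did not pass, or 25.0% called, with a median of -0.16. They were sua1, for ATP sulfurylase, met16, for a reductase of activated sulfate, and sir1, for sulfite reductase. The others were met17, for the step that takes sulfide into homocysteine, and cys2, for homoserine acetylation. met17 had 57.4, 75.6 and 78.9 CPM in tra1-AA and 119.7, 184 and 103 CPM in WT (-0.94 ± 0.19, edgeR BH-adjusted p = 0.00659). sir1 had 679.9, 759 and 712 CPM in tra1-AA and 1111, 1344 and 889 CPM in WT (-0.64 ± 0.13, edgeR BH-adjusted p = 0.00715), and cys2 had 92.7, 99.7 and 116 CPM in tra1-AA and 156, 151 and 162 CPM in WT (-0.60 ± 0.09, edgeR BH-adjusted p = 0.00125). For each of these 3 genes every tra1-AA library was below every WT library. Without tra1-AA replicate 2 these 3 were the falls left, since sua1 (-0.46) and met16 (-0.27) no longer passed, and sua1 was also lost without tra1-AA replicate 1 (-0.41), WT replicate 1 (-0.46) or WT replicate 2 (-0.43).

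Stress genes moved in both directions. Fission yeast answers most stresses through the kinase Sty1 with the factor Atf1, and oxidants also through the factor Pap1. Of 40 core stress genes 7 rose and 7 fell, with 4 rises without WT replicate 1, and of 25 genes tied to Pap1 and oxidants 5 rose and 8 fell. Calls made up 35.0% of the core stress list and 52.0% of the Pap1 list, and the lists share genes such as gst2 and obr1. obr1, a quinone reductase gene and Pap1 target, had 135, 143 and 169 CPM in tra1-AA, 150.4, 141 and 194 CPM in tra1D and 766, 555 and 727 CPM in WT (-2.20 ± 0.15, edgeR BH-adjusted p = 3.40e-06). gst2, a glutathione transferase gene, had 42.7, 35.5 and 44.3 CPM in tra1-AA and 241, 142 and 212 CPM in WT (-2.28 ± 0.20, edgeR BH-adjusted p = 2.93e-05). Both fell in every library, as did trx2, the mitochondrial thioredoxin gene (log2 fold change -0.61). tpx1, the main peroxiredoxin gene, rose to 993, 1143 and 1485 CPM in tra1-AA against 755, 799 and 738 CPM in WT (0.66 ± 0.14, edgeR BH-adjusted p = 0.0083). gst3, another glutathione transferase gene, rose, at 0.60, and gpx1, the glutathione peroxidase gene, with 0.45. rds1, a gene induced by starvation, fell to 96.7, 105 and 106 CPM in tra1-AA against 486, 558 and 236 CPM in WT (-2.06 ± 0.24, edgeR BH-adjusted p = 0.000194). sty1 did not pass, at -0.02. pap1 had 119, 121 and 117 CPM in tra1-AA and 139.7, 135 and 144 CPM in WT (-0.23 ± 0.07, edgeR BH-adjusted p = 0.0374), a small fall whose call was lost without any 1 tra1-AA library, WT replicate 1, WT replicate 3 or tra1D replicate 3.

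Several genes of the septum and the cell surface fell. The glucanase Eng1 digests the septum when daughter cells part. eng1 had 156, 157 and 150.3 CPM in tra1-AA, 150.2, 114 and 161 CPM in tra1D and 273, 338 and 297 CPM in WT (-0.97 ± 0.11, edgeR BH-adjusted p = 0.000214). adg2 had 201, 199.5 and 195 CPM in tra1-AA and 307, 367 and 329 CPM in WT (-0.75 ± 0.09, edgeR BH-adjusted p = 0.000321), and adg1 had a log2 fold change of -0.87 (edgeR, BH-adjusted p = 0.00891). In eng1 and adg2 all tra1-AA libraries were below all WT libraries. Of 37 genes of wall glucan and mannan 6 fell and 31 did not pass. The synthases of glucan among them were bgs3, with 257, 211 and 232 CPM in tra1-AA and 326, 303 and 335 CPM in WT (-0.46 ± 0.08, edgeR BH-adjusted p = 0.00284), ags1, with -0.37, and bgs4, with -0.31, which was lost without tra1-AA replicate 2, tra1-AA replicate 3 or WT replicate 1. Among 18 genes of adhesion 4 fell, led by the flocculin gene pfl3, with 59.4, 56.1 and 54.7 CPM in tra1-AA and 225, 214 and 216 CPM in WT (-1.94 ± 0.09, edgeR BH-adjusted p = 1.62e-07). The flocculation regulator gene cbf12 fell, at -0.97, and so did pfl7, at -1.19. Calls made up 16.2% of the wall list and 22.2% of the adhesion list, against 15.9% of all tested genes.

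In the main fit fatty acid and phospholipid genes moved in both directions, and so did sterol genes. Of 22 genes for fatty acids and phospholipids 5 fell and 1 rose, or 27.3% called against 15.9% of all tested genes, the rise being psd2, for phosphatidylserine decarboxylase, with 137, 156 and 149 CPM in tra1-AA and 98.3, 98.9 and 90.1 CPM in WT (0.62 ± 0.08, edgeR BH-adjusted p = 0.000381). elo2, an elongase gene, fell, at -0.45 (edgeR, BH-adjusted p = 0.00668). The falls were 2 without tra1-AA replicate 2, 3 without WT replicate 2, and 1 without WT replicate 1 or tra1-AA replicate 3, and there were 2 rises without tra1-AA replicate 1 or WT replicate 2. Of 28 sterol and low-oxygen genes ins1, which encodes a regulator of the HMG-CoA reductase, rose, at 0.61 (edgeR, BH-adjusted p = 0.00169), scp1 fell and 26 did not pass, or 7.14% called. The call of scp1 was lost without tra1-AA replicate 2, tra1-AA replicate 3, WT replicate 1 or any 1 tra1D library, and without WT replicate 3 the list had 4 falls. Outside the lists, and named after its value was seen, dsd1, a dihydroceramide desaturase gene, had 218, 190.1 and 175 CPM in tra1-AA and 487, 584 and 292 CPM in WT (-1.22 ± 0.19, edgeR BH-adjusted p = 0.00155).

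Some genes of the transcription machinery rose slightly, and mot1 fell. Among the 21 genes for SAGA subunits 7 rose and 14, with tra1, did not pass, at a median of 0.14. These rises were small, between 0.23 for taf51 and 0.43 for spt20. With the replicate block in the 6 libraries the list had 5 rises. There taf51 (BH-adjusted p = 0.0596, edgeR) and sgf73 (BH-adjusted p = 0.0539, edgeR) no longer passed. The call of sgf73 was also lost in 7 of the 9 fits with 1 library left out. By module, 4 of the 6 TAF genes rose, and 1 gene each of the acetyltransferase, core and deubiquitination modules. The SAGA count was 1 without tra1-AA replicate 2 or WT replicate 1, 2 without tra1-AA replicate 3, 3 without WT replicate 3, and 4 without WT replicate 2 or tra1D replicate 1. Of 20 genes for TFIID and the general factors 4 rose and 2 fell. mot1 encodes the ATPase that strips TATA-binding protein from DNA, and it fell to 122, 119.8 and 124 CPM in tra1-AA, 129, 115 and 140.2 CPM in tra1D, against 198, 191 and 221 CPM in WT (-0.74 ± 0.08, edgeR BH-adjusted p = 0.000141). tfa1, a TFIIE subunit gene, rose, at 0.42 (edgeR, BH-adjusted p = 0.00252). The 2 falls of the list were 1 without tra1-AA replicate 1, tra1-AA replicate 2, WT replicate 1, WT replicate 3 or tra1D replicate 3. The 4 rises were 1 without tra1-AA replicate 2 or WT replicate 1, and 2 without tra1-AA replicate 3, WT replicate 2 or WT replicate 3. Of 13 NuA4 genes vid21 rose, at 0.23, a call lost without any 1 of the 9 libraries, and tra2, the paralog of tra1, did not pass (0.04). Of 21 Mediator genes med20 (0.43) and srb6 (0.33) rose, no fit with 1 library left out called both, and srb6 did not pass with the replicate block in the 6 libraries (BH-adjusted p = 0.0736, edgeR). Among 19 genes of the remodellers SWI/SNF and RSC 2 rose, which was 1 without tra1-AA replicate 2, tra1-AA replicate 3 or any 1 WT library, and snf59 fell, with a log2 fold change of -0.43.

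Several genes for cochaperones of Hsp90 rose, while hsp90 itself did not pass (log2 fold change -0.09). Of 7 Hsp90 and cochaperone genes 4 rose. sti1, the Hop cochaperone gene, had 256, 238 and 246 CPM in tra1-AA, 231, 249 and 260.5 CPM in tra1D and 172, 202 and 172 CPM in WT (0.44 ± 0.08, edgeR BH-adjusted p = 0.0032). git7, the Sgt1 homolog, had 59.7, 50.6 and 55.6 CPM in tra1-AA and 40.9, 41.1 and 38 CPM in WT (0.47 ± 0.10, edgeR BH-adjusted p = 0.011). The others were cdc37, with 0.40, and aha1, with 0.33, whose call was lost without tra1-AA replicate 3 or WT replicate 1. Among the 16 genes of Hsp70, Hsp40, Hsp104 and small heat shock proteins 2 rose and 2 fell. Over the whole list both falls were lost without tra1-AA replicate 2, 1 was left without tra1-AA replicate 1, WT replicate 1 or WT replicate 2, and 4 genes fell without WT replicate 3. The 6 rises were 3 without WT replicate 1. Calls made up 34.8% of this list and 8.33% of the PIKK and TTT list. Of 12 genes for PIKK proteins, TTT and its partners rvb2 rose and 11 did not pass, with tel2, tti1 and tti2 between 0.03 and 0.10. The rise of rvb2 was 0.21, and its call was kept without tra1-AA replicate 1 and in no other fit with 1 library left out, nor with the replicate block in the 6 libraries (BH-adjusted p = 0.0653, edgeR).

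Among the gene lists the proteasome list, 1 of the longer ones, held the most rises, all small. Calls made up 35.0% of it, beside 33.3% of the SAGA list and 15.9% of all tested genes. Of 40 genes 13 rose, 1 fell and 26 did not pass, with a median of 0.17, and 10 of the 13 belonged to the regulatory particle and its factors. rpn1301, a ubiquitin receptor gene, had 119, 110.4 and 116 CPM in tra1-AA, 108, 106 and 105 CPM in tra1D and 77.8, 81.2 and 76.8 CPM in WT (0.55 ± 0.06, edgeR BH-adjusted p = 0.000163). rpn3 had 296, 306 and 287 CPM in tra1-AA and 235, 239 and 220.5 CPM in WT (0.36 ± 0.06, edgeR BH-adjusted p = 0.00335). The tra1-AA libraries were above the WT libraries in both genes, and tra1D lay between them in each. The number of rises was 5 without tra1-AA replicate 2 and 5 without WT replicate 1. The member that fell, rpn502, has a copy over its whole coding sequence, so its reads cannot be assigned with certainty, and its call was lost without WT replicate 1 or WT replicate 2. Beside them ufd1, a cofactor gene of the unfoldase Cdc48, rose, at 0.39, and the stress-induced polyubiquitin gene ubi4 fell, at -0.54. Of 26 autophagy genes atg20 (0.56) and atg3 (0.41) rose, or 7.69% called. Both were lost without WT replicate 1, and atg3 also when either tra1-AA replicate 2 or 3 was left out.

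Ribosome genes lay slightly below 0. Of 138 cytosolic ribosomal protein genes 3 fell and 135 did not pass, or 2.17% called, with a median of -0.13. rpl102 stood out, with 452, 460.1 and 459 CPM in tra1-AA, 771, 469.6 and 645 CPM in tra1D and 797, 792 and 807 CPM in WT (-0.81 ± 0.14, edgeR BH-adjusted p = 0.00268). Its tra1-AA libraries were nearly equal and far below WT, while the tra1D libraries lay between. Leaving out tra1-AA replicate 2, tra1-AA replicate 3 or WT replicate 1 left 1 fall on this list. Of 74 genes for ribosome biogenesis and RNA polymerase I 9 fell and 65 did not pass, or 12.2% called, with a median of -0.13. rlp7, a biogenesis factor gene, had 306, 295 and 276 CPM in tra1-AA and 400.0, 349.8 and 431 CPM in WT (-0.43 ± 0.09, edgeR BH-adjusted p = 0.00858). The number of falls was 16 with the replicate block in the 6 libraries, 1 without tra1-AA replicate 2, 4 without WT replicate 1 and 5 without WT replicate 3. Of 18 RNA polymerase III genes 3 rose, among them rpc25 with 0.34, and this count was 1 without tra1-AA replicate 3 or WT replicate 1.

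**Figure D3:**
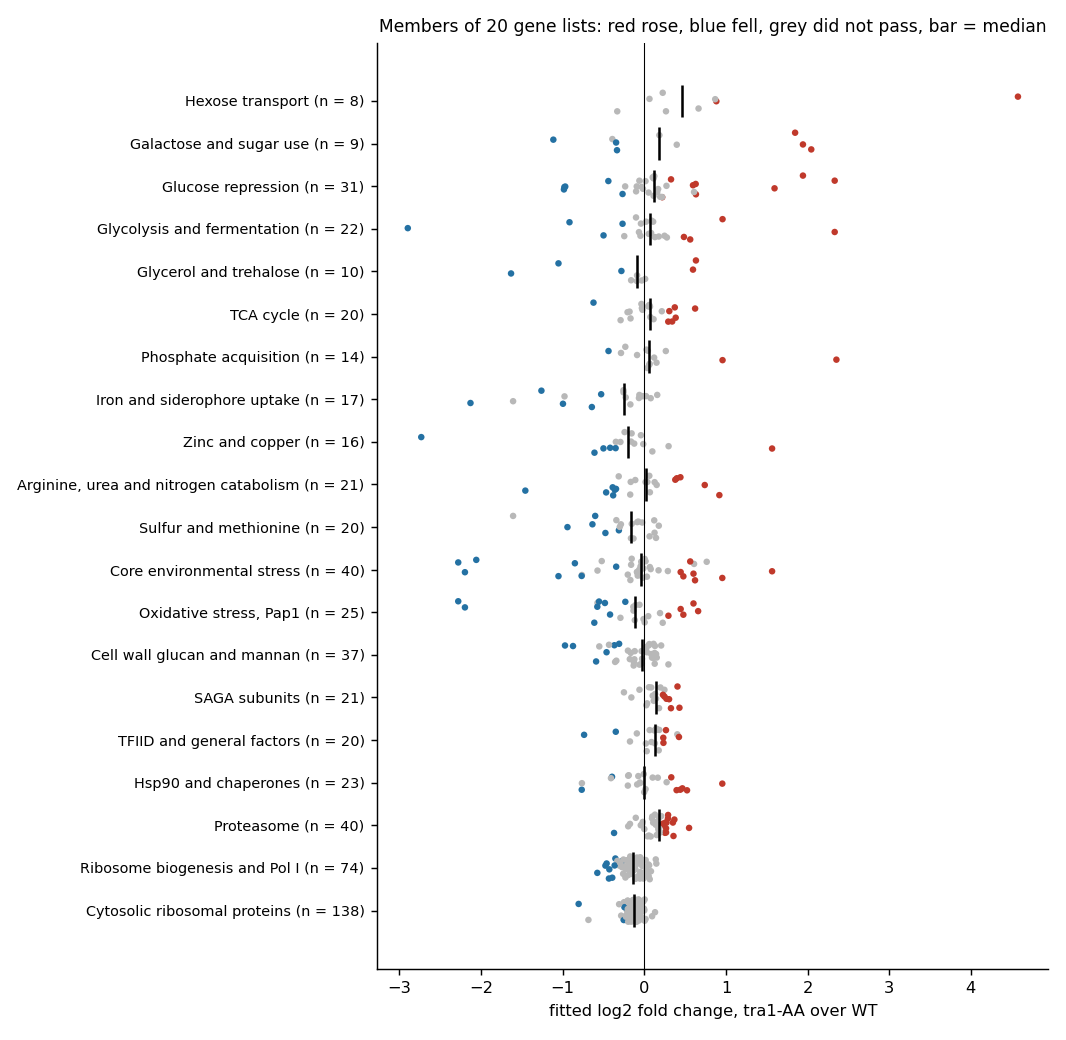
Fitted log2 fold change of tra1-AA over WT (horizontal axis) for the tested members of 20 gene lists (rows, with the number tested), with a point per gene and a black bar at each median. The sugar and stress lists hold members far to both sides of 0, whereas the proteasome and SAGA lists have medians of 0.17 and 0.14.

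Sexual differentiation genes moved both ways. Ste11, the factor that starts mating and meiosis, is held down by protein kinase A and nutrients. ste11 rose to 38.8, 44.3 and 41.9 CPM in tra1-AA, 50.9, 44.5 and 57.8 CPM in tra1D, against 22, 20.6 and 27.2 CPM in WT (0.85 ± 0.13, edgeR BH-adjusted p = 0.00155). pac2, a repressor of ste11, fell to 184, 187 and 198 CPM in tra1-AA against 336, 356 and 302 CPM in WT (-0.81 ± 0.08, edgeR BH-adjusted p = 7.68e-05). isp3, a sporulation gene, fell, at -1.09 (edgeR, BH-adjusted p = 0.00109). Of 23 genes 5 rose and 3 fell, 1 of which is the permease gene nrg1 that entered by its name, and the rises were 3 without tra1-AA replicate 2 and 2 without WT replicate 1 or WT replicate 3. Of 10 pheromone and mating genes mam2, the receptor gene for P factor, rose, with 14.3, 17.5 and 11.7 CPM in tra1-AA and 5.05, 6 and 8.4 CPM in WT (edgeR, BH-adjusted p = 0.0487). The call of mam2 was lost without any 1 tra1-AA library, WT replicate 1, WT replicate 2 or tra1D replicate 3.

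Genes of the cell cycle and centromere had few calls and a single large one. cnp3 encodes CENP-C, the inner kinetochore protein that bridges the centromere to the outer kinetochore, and it had 42.7, 44.3 and 42.8 CPM in tra1-AA, 45.6, 41 and 61.4 CPM in tra1D and 276, 273 and 304 CPM in WT (-2.71 ± 0.12, edgeR BH-adjusted p = 1.62e-07). The neighbouring gene abp2, for an ARS-binding protein and named after its value was seen, fell too, with 30.1, 30.5 and 27.1 CPM in tra1-AA, 37.6, 39.5 and 42.6 CPM in tra1D and 117, 138 and 101 CPM in WT (-2.03 ± 0.12, edgeR BH-adjusted p = 1.06e-06). Both genes were low in all 6 mutant libraries and high in all WT libraries. Of the 33 other centromere genes tested ndc80 and mis16 rose, by 0.33 each on the log2 scale, and 31 did not pass, and both rises were lost without tra1-AA replicate 2, tra1-AA replicate 3 or WT replicate 1, ndc80 also without tra1-AA replicate 1, WT replicate 2 or tra1D replicate 2. Without tra1-AA replicate 1 the list had 4 falls, and without WT replicate 3 it had 2. With all libraries 8.82% of the centromere list was called. Of 24 genes of the MBF factor and S phase 3 fell, or 12.5% called, mik1 with -0.76, dfr1 with -0.46 and ssb1 with -0.33. There were 5 falls without tra1-AA replicate 1. In the histone list ams2, the GATA-type activator of histone genes, fell, at -0.38 (edgeR, BH-adjusted p = 0.00907) and the 10 histone genes did not pass.

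Several of the largest changes were in genes outside the lists. SPAC27D7.11c, of the But2 family, rose to 372, 365 and 505 CPM in tra1-AA against 92, 82 and 73.5 CPM in WT (2.33 ± 0.18, edgeR BH-adjusted p = 1.32e-05). plb1, a lysophospholipase gene, rose to 4395, 4453 and 3675 CPM in tra1-AA, 3708, 3670 and 3792 CPM in tra1D, against 1904, 2157 and 1325 CPM in WT (1.22 ± 0.15, edgeR BH-adjusted p = 0.00038). gnr1, for a G protein beta subunit, rose to 14.3, 14.8 and 22.6 CPM in tra1-AA against 4.54, 2.73 and 6.34 CPM in WT (1.94 ± 0.30, edgeR BH-adjusted p = 0.00156). In the other direction SPBC23G7.10c, for a flavin oxidoreductase, had 2.29, 4.61 and 3.76 CPM in tra1-AA and 37.4, 41.6 and 22.6 CPM in WT (-3.25 ± 0.27, edgeR BH-adjusted p = 2.28e-05). SPAPB24D3.07c, of unknown function, had 50.4, 81.5 and 48.9 CPM in tra1-AA, 52.3, 86 and 46.1 CPM in tra1D and 509.6, 649 and 329 CPM in WT (-3.04 ± 0.29, edgeR BH-adjusted p = 5.28e-05). In gene order it stands beside SPAPB24D3.08c, an oxidoreductase gene that fell, at -1.19, and agl1 follows pdr1, which did not pass at -0.33. Named after their values were seen, dea2, the adenine deaminase gene, fell, at -1.62, and yhb1, for the enzyme that detoxifies nitric oxide, with -1.84 (edgeR, BH-adjusted p = 3.94e-06). yhb1 lies near the right end of chromosome I.

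Position along the chromosomes went with the direction of change. The 50 outermost annotated genes of each of the 6 chromosome ends, by gene order, held 230 tested genes, of which 56 fell (24.3%) and 10 rose (4.35%). Elsewhere 335 of 4682 fell (7.16%) and 380 rose (8.12%). The median log2 fold change was -0.16 at the ends and 0.01 elsewhere, and of the 75 falls of at least 2-fold 31 were at the ends. The falls lay at the ends of chromosomes I and II, with 13 of 31 tested genes at the left end of I, 10 of 32 at its right end, 16 of 33 at the left end of II and 9 of 38 at its right end. At chromosome III, whose ends carry the ribosomal DNA repeats, 2 of 48 fell at the left end and 6 of 48 at the right end. The share that fell was 36.0% in genes 21 to 30 from an end, 15.3% in genes 41 to 50 and 6.65% beyond gene 200. With 1 library left out the count of falls at the ends lay between 42 and 59. One tested gene had no place in the annotation used. Reads of genes with near-identical copies cannot be assigned with certainty.

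**Figure D4:**
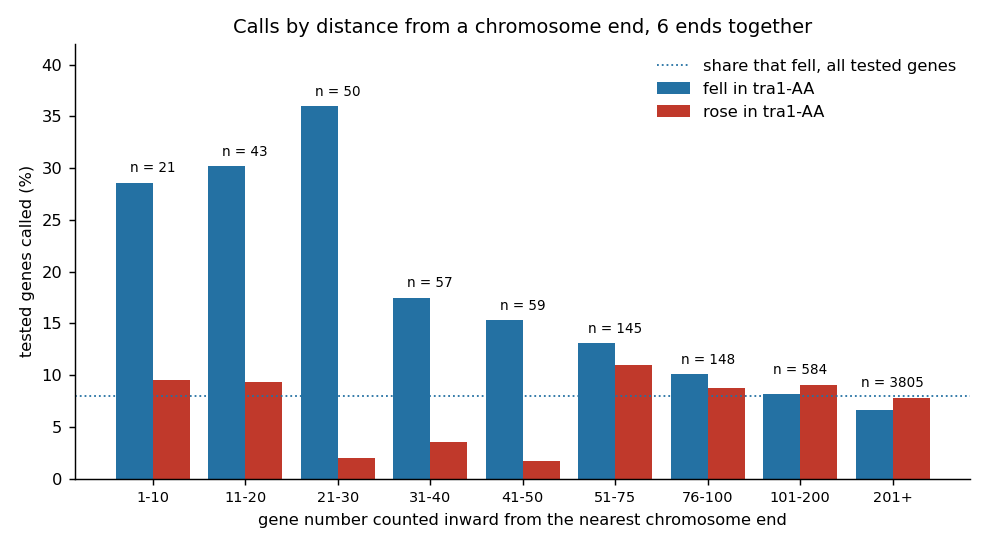
Share of tested genes that fell (blue) or rose (red) in tra1-AA, in percent, by gene number counted inward from the nearest of 6 chromosome ends, with the number tested over each pair of bars and a dotted line at the share of falls over all tested genes, 7.96%. Falls take 28.6%, 30.2% and 36.0% in the outer 3 groups of genes and fall below the line beyond gene 200.

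Falls at the ends came in runs of neighbours. Of 14 runs of 3 or more adjacent genes called in the same direction, 11 were of falls and 7 of these were at chromosome ends, with 25 genes. At the right end of I, 3 adjacent genes were nearly silent in tra1-AA. gdt1 had 3, 3 and 0 counts in tra1-AA, 148, 3 and 5 in tra1D and 723, 643 and 505 in WT. SPAC186.04c, next to it, had 0, 0 and 0 counts in tra1-AA, 9, 0 and 0 in tra1D and 27, 21 and 19 in WT, and SPAC186.06 had 0, 0 and 0 counts in tra1-AA, 8, 0 and 1 in tra1D and 25, 31 and 14 in WT. Against a limit of 3 counts over the group, SPAC186.04c was at least 21.5-fold lower and SPAC186.06 at least 22.5-fold lower in tra1-AA. In all 3 genes tra1D replicate 1 stood above tra1D replicates 2 and 3, which were near tra1-AA. SPAC750.01, an aldo-keto reductase gene further out on the same end, had 0, 1 and 1 counts in tra1-AA, 2, 1 and 1 in tra1D and 53, 50 and 52 in WT.

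At the left end of I, a run of 5 genes fell, from SPAC977.14c to SPAPJ695.02, with dak2 among them. The call of SPAC977.15, the second gene of the run, was lost in all fits with 1 library left out except those without WT replicate 2 or tra1D replicate 2, and leaving out WT replicate 3 gave a log2 fold change of -0.50, against -0.78 with all libraries. Without it 3 of the run's genes remain adjacent. SPAC977.14c, for an aldo-keto reductase, had 71.8, 86.5 and 91.2 CPM in tra1-AA, 91.8, 84.5 and 122 CPM in tra1D and 249.7, 199 and 289 CPM in WT (-1.56 ± 0.15, edgeR BH-adjusted p = 7.68e-05). At the left end of II, 4 adjacent genes from aes1 to SPBPB10D8.02c fell, with SPBPB10D8.01, a cysteine transporter gene, at 15, 19.9 and 12.6 CPM in tra1-AA, 45.6, 11.5 and 29.3 CPM in tra1D and 124, 99.9 and 139 CPM in WT (-2.93 ± 0.35, edgeR BH-adjusted p = 0.00023). Further out on that end grt1, a transcription factor gene, lies between a urea transporter gene and the acetamidase gene fah1, and all 3 fell, grt1 to 5.44, 6.85 and 3.46 CPM in tra1-AA, 14.1, 4.92 and 13.1 CPM in tra1D, against 44.7, 40.1 and 43.9 CPM in WT (-3.02 ± 0.31, edgeR BH-adjusted p = 9.85e-05). In SPAC977.14c, SPBPB10D8.01 and grt1 all tra1-AA libraries were below all WT libraries, and tra1D replicate 1 and tra1D replicate 3 were above every tra1-AA library. The call of aes1 was lost without tra1-AA replicate 2 (-1.25), WT replicate 1 (-1.09) or WT replicate 2 (-0.93), and SPBPB21E7.09 in that run has a copy over its whole coding sequence. At the right end of II the run from nrg1 to SPBPB2B2.06c fell a few genes away from gal7 and gal10, which rose. Of its 4 genes nrg1 was called in every fit with 1 library left out. The call of say1 was lost without tra1-AA replicate 2, tra1-AA replicate 3 or WT replicate 1, and that of SPBPB2B2.05 without these libraries or WT replicate 2. The call of SPBPB2B2.06c was lost without any 1 tra1-AA library, WT replicate 1 (-1.61), WT replicate 2 (-0.93) or tra1D replicate 1. Near the right end of III, SPCC569.03 rose to 12.6, 15.8 and 17.7 CPM in tra1-AA against 4.54, 4.09 and 3.64 CPM in WT (1.90 ± 0.21, edgeR BH-adjusted p = 0.000172), while SPCC569.05c, a spermidine transporter family gene close by, fell, at -1.56.

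The allele and the deletion were also compared with each other, by a contrast within the same fit, in which the WT libraries enter only through the shared scaling and estimate of spread. Between tra1-AA and tra1D 2 of 4913 genes passed, or 0.0407% (edgeR, BH-adjusted p under 0.05), and DESeq2 called 4. The 187 genes with an unadjusted edgeR p under 0.05 are fewer than that threshold passes on average when no gene differs. The 2 genes called by edgeR were tra1, higher in tra1-AA (0.0204% of tested genes), and ubc7, the gene beside it for a ubiquitin-conjugating enzyme, lower in tra1-AA (0.0204%). The difference in tra1 was set by the strains, since tra1D lacks the gene. ubc7 had 71.8, 82.9 and 78 CPM in tra1-AA, 224, 217 and 199 CPM in tra1D and 58.6, 66.3 and 58 CPM in WT, at -1.46 on the log2 scale for tra1-AA over tra1D. The tra1D libraries were above all others for ubc7. Because ubc7 adjoins the gene deleted in tra1D, an effect of the altered locus on its neighbour and an effect of losing Tra1 cannot be told apart. Against WT its rise in tra1-AA (0.35 ± 0.08, edgeR BH-adjusted p = 0.016) was lost without tra1-AA replicate 2 (0.29) or WT replicate 1 (0.32). Next in order was mcs2, for a cyclin of TFIIH, which did not pass (BH-adjusted p = 0.141, edgeR), with 15.9, 10.1 and 15.2 CPM in tra1-AA, 4.36, 5.57 and 5.7 CPM in tra1D and 18.8, 19.8 and 27.1 CPM in WT. The number called was 5 without tra1-AA replicate 2 and 5 without tra1D replicate 2. A p that misses the threshold does not show that the other genes are equal in the mutants.

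In tra1D against WT 566 genes passed, 11.5% of those tested, with 254 rises (5.17%) and 312 falls (6.35%). Both comparisons share the WT libraries, so their values are only set side by side. ght5 stood at 4.58 in tra1-AA and 4.39 in tra1D, pho842 at 2.35 and 2.14, cnp3 at -2.71 and -2.53, and obr1 at -2.20 and -2.08, all as log2 fold change over WT. Of genes near chromosome ends, picked after their values were seen, nrg1 stood at -3.55 in tra1-AA and -2.25 in tra1D, the amino acid permease gene aat1 at -0.78 and -0.73, SPAC977.17 at -0.93 and -0.79, SPBPB21E7.09 at -2.15 and -1.45, and grt1 at -3.02 and -2.02. The enolase gene eno102, also near an end, stood at -2.90 in tra1-AA and -1.39 in tra1D. In the direct test of tra1-AA against tra1D none of nrg1, SPBPB21E7.09, grt1 and eno102 passed (edgeR, BH-adjusted p = 0.999 each).

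**Figure D5:**
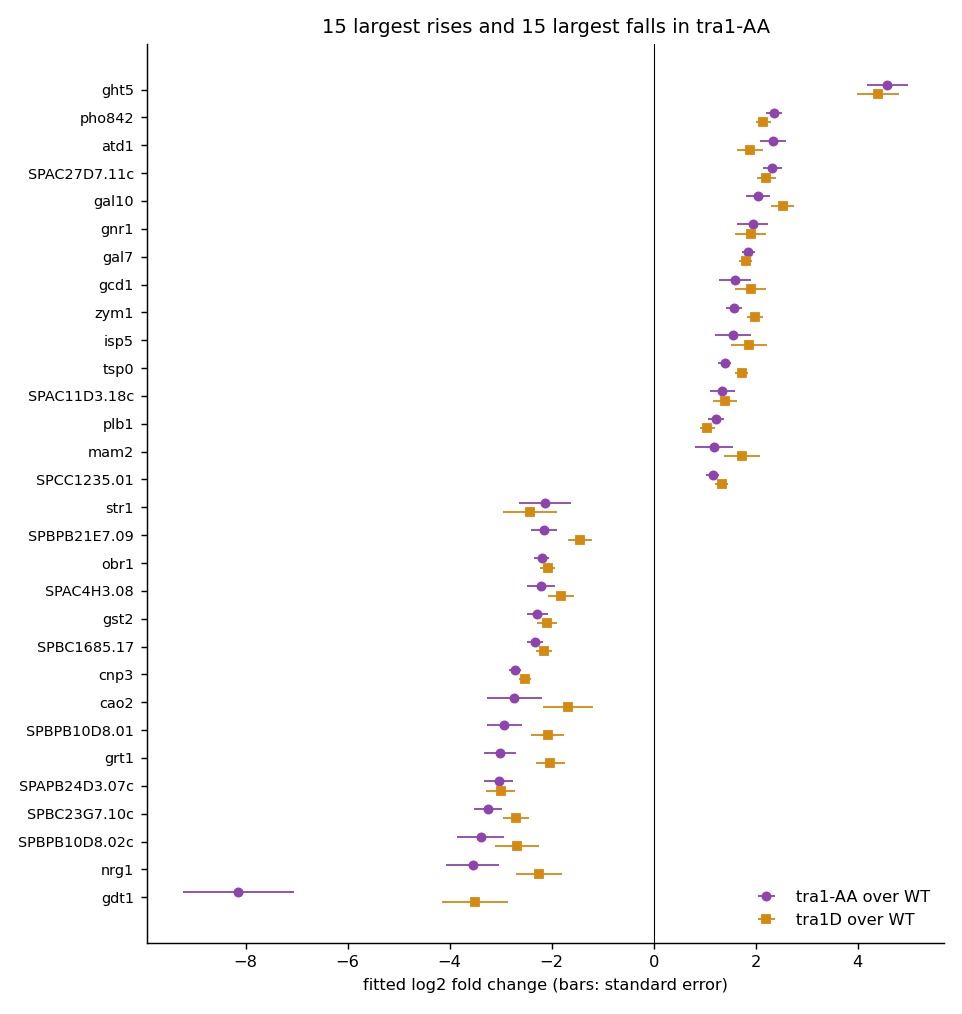
Fitted log2 fold change over WT (horizontal axis, with bars of 1 standard error) in tra1-AA (purple circles) and tra1D (orange squares) for the 15 largest rises and 15 largest falls in tra1-AA. Both comparisons use the same WT libraries, so their values are set side by side only. Of the 30 genes gdt1 has its marks furthest apart, at -8.14 for tra1-AA and -3.50 for tra1D. Its counts summed to 6 in tra1-AA and 156 in tra1D, most of the latter from tra1D replicate 1.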

How the data were processed

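RNA was read from 9 libraries of Schizosaccharomyces pombe, grouped by title. Per the submitters' processing notes, bcl2fastq, HISAT2 2.1.0, HTSeq 0.9.1 and DESeq2 1.18.1 were used. The deposited count table gives reads per gene without normalization by the authors. The authors' deposited comparison of tra1-AA with WT gives a log2 fold change per gene. The deposited table also holds an adjusted p-value per gene, which the authors took from DESeq2. No source used here gives the genome build, the annotation or the strand setting of the counting, so reads of overlapping or antisense partners may not be told apart and coordinates are left out.

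Of 5129 genes, 66 had no count and filterByExpr set 150 more aside, at a minimum count of 10 and a total of 15. All 11 mitochondrial genes lacked counts. A quasi-likelihood fit in edgeR 4.0.16 (R 4.3.3, TMM factors) used all 9 libraries, which share an estimate of spread, and p-values were Benjamini-Hochberg adjusted over all tested genes at 0.05. Its biological coefficient of variation was 0.0932. Names, products and gene order came from RefSeq ASM294v3, in which locus tags matched 5111 IDs and older IDs 3 more, leaving 15. A gene was said to have a near-identical copy where BLAST 2.17.0 hits of 50 bases or more, at 98% identity, covered 10% or more of its coding sequence. Tables and figures used Python 3.11.15, numpy 2.4.6, pandas 2.3.3 and matplotlib 3.10.9. Chi-square per degree of freedom between replicates was 8.41 to 28.8, so none was a copy of another. Per-sample columns left unused numbered 0.

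Members and the 47 gene lists, not all of which are reported here, were chosen with earlier results of these data known. Shares of calls by list, beside the share over all tested genes, are thus descriptions only. List names were matched by symbol, so some members may have other roles, and 53 names were not found. Named genes are the 15 largest changes per direction among calls whose group ranges are separate and whose mean reaches 10 CPM, 5 called and 2 abundant uncalled members at most from each list, tra1, genes called between tra1-AA and tra1D, and members of runs of at least 3 neighbours. Outside this rule, and chosen after their values were seen, are SPAC750.01, SPAPB24D3.08c, SPCC569.03, abp2, aha1, arg4, arg5, bgs4, cdc37, dea2, dsd1, fbp1, gpa2, gpx1, hsp90, idh2, mcs2, ntp1, pap1, pdr1, pho7, pho841, pho843, pka1, taf51, tal1, tdh1, tel2, tps1, tti1, tti2 and yhb1.

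Deviations of same-numbered tra1-AA and WT libraries had correlations across genes of 0.109, 0.357 and 0.215. The replicate number was read as a possible pairing, although no label says what it marks. This pairing is uncertain, since tra1-AA replicate 2 and WT replicate 1 had 0.0849, and the main fit has no replicate block. Same-numbered tra1-AA and tra1D libraries did not deviate together (-0.203, -0.0777 and -0.0171). Block values beside single genes thus come from the fit of the tra1-AA and WT libraries alone. Alternatives were DESeq2 1.42.0, limma-voom (3.58.1), RLE factors, scaling by library totals alone, testing without a filter, a mean of at least 10 CPM, the 2 groups alone, the replicate block and each library left out.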

Additional observations from a re-analysis of the deposited data

Results flagged for a closer look

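Between the mutants, tra1 was higher in tra1-AA than in tra1D by 7.44 on the log2 scale (edgeR, BH-adjusted p = 7.68e-10), with 3 of 3 tra1-AA libraries above all tra1D libraries. ubc7, the next gene along the chromosome, differed in the other direction, by -1.46 (edgeR, BH-adjusted p = 1.1e-06), with 3 of 3 tra1-AA libraries below all tra1D libraries. It adjoins the gene deleted in tra1D, so an effect of the altered locus and one of losing Tra1 cannot be told apart. Both were picked out because their levels in tra1-AA and tra1D differed in the direct test. For tra1, the gene deleted in tra1D, this difference was set by the strains themselves.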

How the results depend on the processing

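The 781 calls of tra1-AA against WT ranged from 364 (without tra1-AA replicate 2) to 845 (without tra1-AA replicate 1), and were 398 without WT replicate 1. With the replicate block they were 718, of which 673 were among the 781. The 2 groups alone gave 552 calls without the block and 903 with it. Of the 215 named called genes recomputed singly, none changed direction under an alternative run. Over the same fits with a library left out, genes called between tra1-AA and tra1D ranged from 2 to 5, calls in any gene list from 108 to 196, calls shared with the authors' deposited table from 352 to 569, and the log2 fold change of tra1 from -0.324 to -0.175. DESeq2 called 4 genes between tra1-AA and tra1D. A mean of at least 10 CPM left 64 calls of 2-fold or more in place of 98, since it removes weakly expressed genes. With the block in the 2 groups alone tra1 passed, at -0.258. For the other changes the cause was not tested. Library totals alone gave 685 calls, 59.7% of them higher. Of these 215 genes 125 stayed called under every alternative. Values of the block in the 2 groups alone that changed the call of a gene named in the report stand beside it. With 3 libraries a group and totals of 5738138 to 8101004 counts, small changes in weakly expressed genes may go undetected.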
